A study of Mus musculus with 6 samples.

Results

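Olfactory receptor genes with reads in mouse CD4+ T cells are described here: the genes with an Olfr symbol whose estimated counts summed to at least 10 over the 6 libraries. The count table held 1236 rows with an Olfr symbol, of 1407 Olfr genes in the name table. Of these rows, 888 were at 0 in every library, 133 had some counts but fewer than 10, and 215 passed the minimum and are the genes described. The genes were thus chosen by their summed counts, so the levels below are a description, and only the comparison of treatments was tested. At the minimum itself, Olfr76, Olfr113 and Olfr156 had summed counts of 10, Olfr1129 had 10.002 and Olfr17 had 10.005. Just below it were Olfr907 with 9.874, Olfr57 with 9.868 and Olfr270 with 9.583.

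The cells were wild-type (WT) CD4+ T cells without CD25 (non-Treg), taken from spleen and mesenteric lymph node of C57BL/6 mice, and were kept for 4 h in wells of 1000000 cells. Tunicamycin, an inhibitor of N-linked protein glycosylation that causes endoplasmic reticulum stress, was given at 0.15 µg/mL to the cells of 3 libraries. The cells of the other 3 libraries received vehicle, per the treatment label, while their titles say no treatment. All 6 titles speak of technical replicates. Every p-value below therefore reflects variation among libraries, which may be technical.

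Olfactory receptors are G protein-coupled receptors that olfactory sensory neurons of the nose use to detect odorants. Each neuron is known to express a single allele of a single receptor gene, and the signal runs through a G protein, an adenylyl cyclase and a cyclic nucleotide-gated channel. The genes lie in clusters on many chromosomes, typically carry their coding sequence in a single exon, and fall into class I, in a single cluster on mouse chromosome 7, and class II. A few of them are known to act outside the nose.

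Many of the genes share exact stretches of sequence with other genes, and this bears on how their reads can be assigned. In the GENCODE M21 transcripts of build GRCm38, 174 of the 215 genes held a coding 31-mer that also occurs in a transcript of another gene. A noncoding 31-mer was shared in this way by 210 of the 215. The longest identical coding stretch of the 174 genes had a median of 107.5 nt, with a range of 31 to 942 nt. Sequence alone cannot assign a read that lies within such a stretch. The listed read length was 150 bp, above the median stretch, so only the longer stretches can hold a whole read. The stretches below belong to 5 of the 6 genes with the most counts. Olfr986, the other of these 6, had no shared coding 31-mer. Each is printed 5′ to 3′ on the coding strand, with capitals for the 31 bases that occur in the largest number of other genes (the first such window).
Olfr365: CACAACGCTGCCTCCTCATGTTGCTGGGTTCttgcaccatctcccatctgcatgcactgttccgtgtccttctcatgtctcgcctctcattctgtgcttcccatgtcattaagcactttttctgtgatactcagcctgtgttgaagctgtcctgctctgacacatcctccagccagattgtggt
Olfr1307: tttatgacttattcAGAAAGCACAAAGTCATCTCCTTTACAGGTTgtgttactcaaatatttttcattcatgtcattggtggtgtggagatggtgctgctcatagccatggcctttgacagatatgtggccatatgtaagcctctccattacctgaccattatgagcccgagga
Olfr338: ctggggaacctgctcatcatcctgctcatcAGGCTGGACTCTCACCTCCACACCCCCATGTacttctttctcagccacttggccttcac
Olfr90: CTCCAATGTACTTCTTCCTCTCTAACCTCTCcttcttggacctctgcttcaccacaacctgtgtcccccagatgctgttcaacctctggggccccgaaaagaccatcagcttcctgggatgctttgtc
Olfr635: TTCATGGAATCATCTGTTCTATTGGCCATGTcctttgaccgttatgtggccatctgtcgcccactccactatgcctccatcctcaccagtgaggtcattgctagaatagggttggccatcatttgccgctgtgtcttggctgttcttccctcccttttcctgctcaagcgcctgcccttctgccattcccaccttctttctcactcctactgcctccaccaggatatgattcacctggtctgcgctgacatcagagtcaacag

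The Olfr365 stretch of 184 nt lies at chr2:37201661-37201844 on the plus strand and is identical to part of the pseudogene Olfr364-ps1, not analysed here. The 174 nt of Olfr1307 lie at chr2:111945037-111945210 on the minus strand and occur in Olfr1306, which had 0 counts. Olfr338 shares 89 nt, at chr2:36376889-36376977 on the plus strand, with Olfr348, which had 0 counts. Its capitals mark the most widely shared window of the set, found in 9 other genes. Olfr90 shares 128 nt, at chr17:37085873-37086000 on the minus strand, with Olfr753-ps1, not analysed here. Olfr635 shares 263 nt, at chr7:103979524-103979786 on the plus strand, with Olfr638, which had 0 counts. So Olfr1307, Olfr338 and Olfr635 had between 1900 and 2650 counts while their partners had none in any library.

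The olfactory receptor genes made up a small part of the counts in the 13685 rows. The deposited TPM of these rows summed to 319120 to 332870 per library and not to 1000000. The shares and CPM here are therefore relative to these rows and not to all RNA. Estimated counts summed over all rows ranged from 10584276 to 11211270 in tunicamycin libraries and from 7412151 to 9495725 in vehicle libraries. The 215 genes held 0.0729%, 0.0896% and 0.0803% of these counts in the tunicamycin libraries. In the vehicle libraries they held 0.0701%, 0.0697% and 0.0633%. T cell transcripts were abundant: the 5 CD4+ T cell markers with a row (Il7r, Ccr7, Trbc2, Cd3e and Cd3d) summed to between 16630 and 17105 CPM in tunicamycin libraries and between 16843 and 17289 CPM in vehicle libraries. CPM denotes estimated counts per 1000000 of the TMM-scaled library size. Cd4 itself was not analysed here. Il2ra, which encodes CD25, was at 88.2 to 124 CPM in tunicamycin libraries and 73.3 to 102 CPM in vehicle libraries. Of the other cell types, the 3 of 5 plasma cell markers with a row (Igha, Jchain and Mzb1) spanned the widest range, 95.4 to 677 CPM with tunicamycin and 84.2 to 676 CPM with vehicle. Igha, the IgA heavy chain, followed the replicate number, with 334, 596 and 83.0 CPM with tunicamycin and 300.5, 594 and 76.7 CPM with vehicle. The part of these markers in the receptor levels was not tested.

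Most of the olfactory neuron markers with a row were at or near 0. Omp, the marker protein of mature olfactory sensory neurons, and Cnga2, the main subunit of their odorant-gated channel, had 0 counts in all 6 libraries. Cnga4, a further channel subunit, had 3 counts in all, every one in a tunicamycin library. Of 12 listed neuron markers, 5 had a row and 3 of these were at 0. Stoml3, a membrane protein of olfactory cilia, was the exception, with summed counts of 42.9, close to the median of 48.0 of the 215 genes. Among the genes for receptor trafficking and receptor choice, 8 of 17 had a row. Rtp1, which carries olfactory receptors to the cell surface, and Gfy, which is needed for odorant signalling in neurons, were at 0.

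Counts were spread unevenly over the 215 genes. Summed counts per gene ranged from 10 to 2818 with a median of 48.0. Olfr365 alone held 6.55% of them, the first 4 genes (Olfr365, Olfr986, Olfr1307 and Olfr338) 25.1%, the first 15 genes 54.6% and the first 50 genes 82.7%. Mean TPM, the length-scaled unit that the authors deposited, ranged from 0.0152 to 14.6 with a median of 0.122. A mean of at least 1 TPM was reached by 25 genes and a mean of at least 0.1 TPM by 126.

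On this scale Olfr1033 stood highest, with 13.2, 15.3 and 13.4 TPM in tunicamycin libraries and 13.6, 16.9 and 15.3 TPM in vehicle libraries. All its libraries lay above those of every other olfactory receptor gene. This level rested on few reads: 376 counts in all, at 3.52 to 4.82 counts per TPM. The median over the 37 genes with at least 250 counts was 78.0 counts per TPM. The shortest of the 5 annotated Olfr1033 transcripts has 316 nt, against a coding length of 930 nt. Which transcript the authors' estimate used is not given in the sources used here.

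Olfr986 followed with 5.74, 7.07 and 6.09 TPM in tunicamycin libraries, and 5.08, 6.21 and 4.87 TPM in vehicle libraries. Olfr90, a class II gene of the chromosome 17 cluster beside the major histocompatibility complex, had 3.96, 6.07 and 5.58 TPM with tunicamycin and 3.09, 4.57 and 4.4 TPM with vehicle. For both genes the groups overlapped. Olfr1031, a neighbour of Olfr1033 in the large class II cluster of chromosome 2, had 3.8, 4.96 and 3.43 TPM with tunicamycin and 6.03, 3.92 and 4.25 TPM with vehicle. In tunicamycin libraries Olfr338 stood at 4.00, 5.38 and 4.53 TPM, and in vehicle libraries at 3.32, 5.12 and 3.21 TPM. These 4 genes and Olfr365 lay in a similar range, and the libraries of each gene overlapped those of the others. The treatment groups of Olfr365 are compared further below.

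Olfr1173 had 2.42, 3.79 and 3.14 TPM with tunicamycin and 3.70, 2.61 and 3.45 TPM with vehicle. Olfr635 had 2.34, 2.67 and 2.56 TPM in tunicamycin libraries and 3.28, 2.37 and 2.04 TPM in vehicle libraries. Olfr624 had 2.64, 2.46 and 1.88 TPM with tunicamycin and 2.29, 2.37 and 1.92 TPM with vehicle. Olfr635, Olfr624 and Olfr552 are class I genes of the chromosome 7 cluster. Olfr552 had 1.45, 1.88 and 1.54 TPM with tunicamycin and 1.37, 1.56 and 1.34 TPM with vehicle. No library group of these 4 genes stood apart from the other.

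Further down the order, Olfr1264 had 1.24, 2.25 and 2.01 TPM with tunicamycin and 3.21, 1.89 and 2.17 TPM with vehicle. For Olfr351 the values were 1.89, 2.14 and 2.25 TPM with tunicamycin and 2.45, 1.97 and 1.76 TPM with vehicle. Olfr784 had 1.69, 2.05 and 1.31 TPM with tunicamycin and 2.16, 1.14 and 1.25 TPM with vehicle. In these 3 genes the groups overlapped, and from Olfr1264 down neighbouring genes were not set apart by their libraries. Olfr374 had 1.64, 1.12 and 2.92 TPM with tunicamycin and 2.13, 1.36 and 1.16 TPM with vehicle, a wider spread than Olfr351 or Olfr552.

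Olfr539 showed how far the TPM of a gene could move without its counts. Its counts were 172, 240.0 and 239.9 with tunicamycin and 106, 126 and 131 with vehicle. Its TPM were 1.78, 0.787 and 3.04 with tunicamycin and 3.43, 0.602 and 1.05 with vehicle. Counts per TPM ranged 9.91-fold over its libraries, against a median range of 1.55-fold over the 37 genes with at least 250 counts and a range of 1.51-fold in library totals. Olfr539 has 4 annotated transcripts of 416 to 11486 nt. Olfr1307 ranked 3 by counts, with 488, 660 and 535 counts in tunicamycin libraries and 367, 247 and 353 counts in vehicle libraries. By TPM it ranked 16, with a mean of 1.49, and its longest transcript has 15582 nt.

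**Figure D1:**
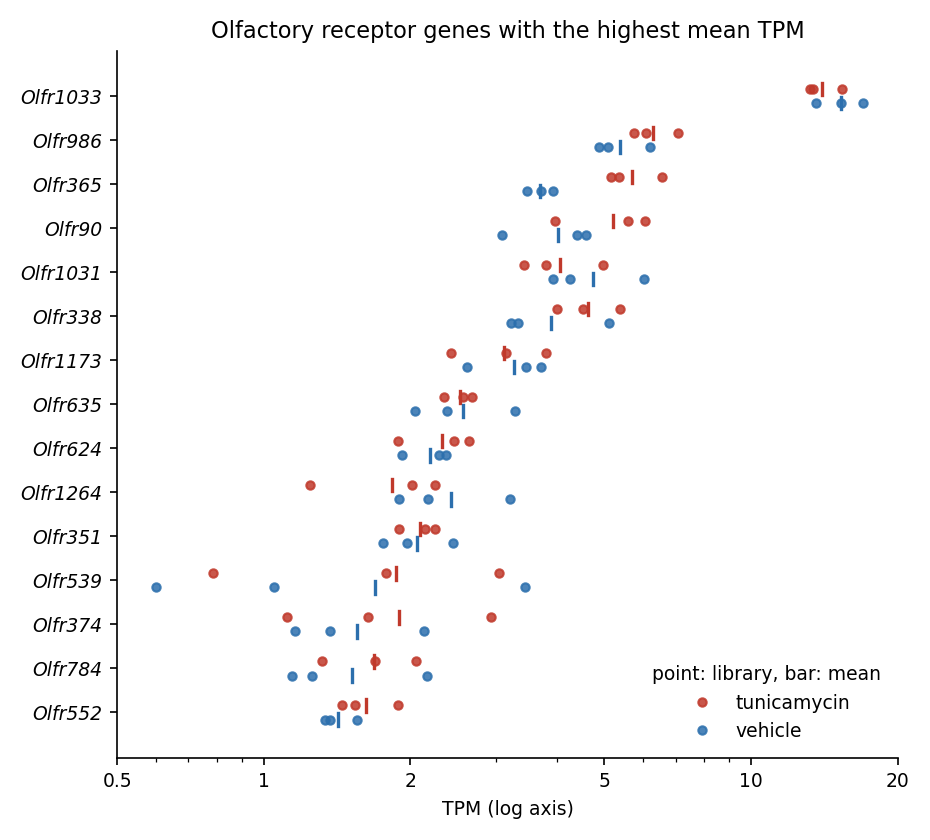
TPM of the 15 olfactory receptor genes with the highest mean, on a log axis, with a point for each library, a bar for each group mean, tunicamycin above vehicle. Olfr1033 lies highest at 13.2 to 16.9 TPM, and Olfr365 is the gene whose 3 tunicamycin libraries all lie above its 3 vehicle libraries.

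Receptors with a published ligand or a long history of study, listed for that and not for their values, were mostly at 0 or near the minimum. Of 11 such genes, 9 had a row and 3 were among the 215. Olfr1440, a muscone receptor, had 16.9, 23.0 and 9.95 counts with tunicamycin and 10.0, 17.6 and 4.00 counts with vehicle. Olfr2, the octanal receptor I7, had 1, 12.7 and 16.1 counts with tunicamycin and 8.25, 3.00 and 7.01 counts with vehicle. For both genes the groups overlapped. Olfr17, the P2 receptor of axon targeting studies, passed at 10.005 counts. Olfr558, a short-chain fatty acid receptor also known from blood vessels, Olfr544, which responds to azelaic acid, Olfr16 (MOR23) and Olfr151 (M71) were at 0 in every library.

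The rows with reads differed from the rest in their gene models, a property that the counting rule did not use directly. All 215 genes are protein-coding in the annotation, out of 1066 protein-coding rows (20.2%, Wilson 95% interval 17.9 to 22.7%). None of the 170 rows annotated as pseudogenes passed the minimum (0%, upper limit 2.21%), and 168 of them were at 0. Coding length was alike, with a median of 939 nt in the genes with reads and 939 nt in protein-coding rows at 0. Noncoding exon length was not alike, with a median of 3203 nt in the genes with reads, 2624 nt in rows below the minimum and 1523.5 nt in rows at 0. The part of model length in passing a minimum on counts was not tested.

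The share of protein-coding rows that passed the minimum was 3.38% where the noncoding exons held under 500 bases and 58.2% where they held at least 5000 (5 of 148 rows and 32 of 55). In the steps between, it was 6.72%, 11.9%, 20.7%, 31.8% and 51.9%. Across the 1066 rows, noncoding length and summed counts had a Spearman correlation of 0.46, given as a description since the rows share libraries and repeated sequence. Within the 215 genes it was 0.26 with summed counts and 0.00 with mean TPM.

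The noncoding exons of the genes with reads also held more sequence that occurs elsewhere. A median of 7.07% of their noncoding 31-mers occurred in transcripts of other genes, against 2.30% in rows below the minimum and 0.294% in rows at 0. Shared coding 31-mers did not follow that order, with medians of 18.1%, 17.8% and 22.7%. Genes outside the family that shared at least a 31-mer numbered 359 at the median in the genes with reads, 934 in rows below the minimum and 0 in rows at 0. Of the 460 rows that shared no 31-mer with a gene outside the family, 5 passed the minimum (1.09%). With 1 to 9 such genes 4.48% passed, with 10 to 99 30.8%, with 100 to 999 51.8%, and with 1000 and over 40.9%.

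Among models with 2000 to 3999 noncoding bases, 0 of 91 rows that shared none passed the minimum, and 48 of 95 rows that shared with 100 to 999 genes did. These rows still differed in length, with a median of 2847 noncoding bases where they shared with 100 to 999 genes and 2396 where they shared with none. Across the 215 genes, the share of noncoding 31-mers found elsewhere had a Spearman correlation of 0.52 with mean TPM, and the share of coding 31-mers one of -0.01. These are descriptions across genes, which are not independent replicates. Of the deposited values above 0 for the 215 genes, 78.5% were not whole numbers, within a tolerance of 0.0015, against 48.4% for the other 4856 rows with at least 10 counts. Within the 215 genes it was 80.8% in those at or above the median share of shared 31-mers and 75.8% in those below it. The part of shared sequence in the counts was not tested.

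**Figure D2:**
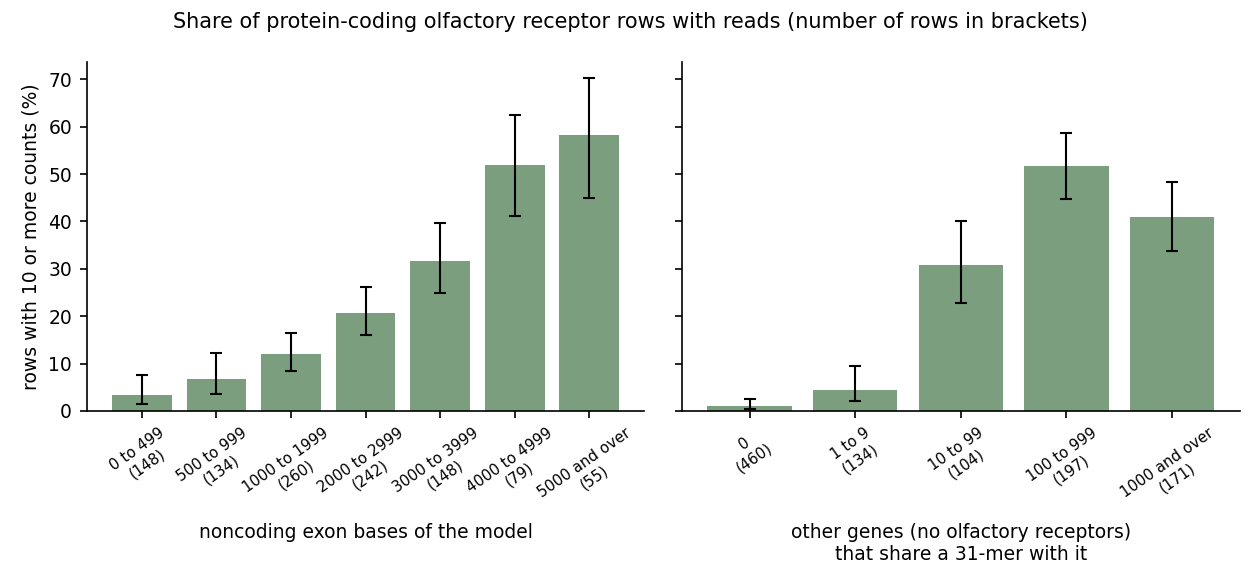
Share of protein-coding olfactory receptor rows with at least 10 summed counts (percent, bars, with Wilson 95% intervals), by bases of noncoding exon in the model (left) and by the number of genes outside the family that share a 31-mer with it (right). The share is 3.38% in the shortest and 58.2% in the longest length class, and 1.09% in models that share with no such gene.

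By chromosome, 54 of 327 olfactory receptor rows on chromosome 2 passed the minimum and held 39.6% of the counts of the 215 genes. On chromosome 7 it was 44 of 260 rows with 23.9% of the counts, and on chromosome 9 it was 29 of 157 rows with 10.1%. Chromosome 17 had 13 of 49 rows with 7.05% of the counts, a share of rows of 26.5%, against 16.5% on chromosome 2. Among the 215 genes, 17 overlapped a gene model outside the family, 8 of them on the same strand. Olfr635 (with Gm4886), Olfr374 (with Gm24747) and Olfr1152 (with Gm13745) are 3 of the 17. Whether the authors counted by strand is unknown. An overlap of gene models need not be an overlap of exons, and the part of these overlaps in the counts was not tested.

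The second question was how these transcripts compared between tunicamycin and vehicle. At least 1 count was found for 188, 193 and 193 of the 215 genes in tunicamycin libraries and for 164, 152 and 178 in vehicle libraries. The tunicamycin libraries were the deeper ones, and so supplied more of the summed counts by which the genes were chosen. Thinned to the smallest library total, the expected numbers were 184, 187 and 188 with tunicamycin and 164, 152 and 173 with vehicle. Thinning does not undo that choice, so these numbers are a description. The other 4856 rows with at least 10 counts, thinned alike, had a count in 91.0%, 90.7% and 90.5% of rows with tunicamycin and in 87.3%, 86.8% and 88.0% with vehicle. For the olfactory receptor genes these shares were 85.7%, 87.2% and 87.5% with tunicamycin and 76.3%, 70.5% and 80.5% with vehicle. A count in every library was found for 114 of the genes, in 5 libraries for 39, and in 1 library for 2.

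Every vehicle library was at 0 for 11 of these genes (5.12%), against 2.94% of all rows with at least 10 counts. Every tunicamycin library was at 0 for 3 (1.40%), against 1.26% of all such rows. Each of these genes reached the minimum through the reads of a single group, and the tunicamycin libraries were deeper, so nothing is read from these counts. Olfr695 had 8, 18 and 13 counts with tunicamycin and 0 in each vehicle library, where 3 counts correspond to 0.327 to 0.403 CPM. Olfr586 had 4, 8 and 8 counts with tunicamycin and 0 in each vehicle library. Olfr1278 had 12 counts in vehicle replicate 2 and none elsewhere. Olfr1428 likewise had 12 counts in vehicle replicate 1 and none elsewhere. None of these 14 genes passed the filter on low counts, and counting error limits each of them.

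Summed over the 215 genes, levels were 724, 880 and 790 CPM in tunicamycin libraries and 698, 708 and 655 CPM in vehicle libraries. The lowest tunicamycin library lay just above the highest vehicle library. The means were 798 ± 78.1 CPM with tunicamycin and 687 ± 28.3 CPM with vehicle (SD, n = 3 each), a ratio of 1.16. On the TPM scale the sums were 108 ± 10.6 with tunicamycin and 98.0 ± 5.25 with vehicle, a ratio of 1.10 (SD, n = 3 each). Here the groups overlapped, at 97.8, 119 and 108 TPM with tunicamycin and 101, 101 and 92.0 TPM with vehicle. No test is given for this sum over chosen genes. In bulk RNA, a change in the number of cells that hold a transcript and in the amount per cell cannot be told apart.

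Olfr365, a class II receptor gene of chromosome 2 (ENSMUSG00000059429, chr2:37188198-37206019 on the plus strand of GRCm38), had the most counts of the 215. Its estimated counts were 565, 748 and 597 with tunicamycin and 272, 264 and 371 with vehicle. In CPM these were 53.1, 65.5 and 54.1 with tunicamycin and 36.6, 35.3 and 40.4 with vehicle. Every tunicamycin library was above every vehicle library. The means were 57.5 ± 6.88 CPM with tunicamycin and 37.4 ± 2.66 CPM with vehicle (SD, n = 3 each).

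The fitted log2 fold change of Olfr365 was 0.62 (95% interval 0.32 to 0.92), with an unadjusted p of 0.00070 in edgeR's quasi-likelihood test fitted across all 3613 rows. Its Benjamini-Hochberg adjusted p was 0.25 in edgeR, which missed the threshold of 0.05. DESeq2 gave an adjusted p of 0.033, and edgeR without a filter on low counts gave an adjusted p of 0.044 and called 0.237% of all rows, so the call depended on the method. The gene was singled out with earlier results of these data known, so the difference is not independent evidence. Its TPM values, 5.16, 6.57 and 5.35 with tunicamycin and 3.70, 3.46 and 3.92 with vehicle, also did not overlap. On the GENCODE M21 model, 54.5% of its coding and 18.1% of its noncoding 31-mers occur in other genes, and none of its 6 estimated counts was a whole number.

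**Figure D3:**
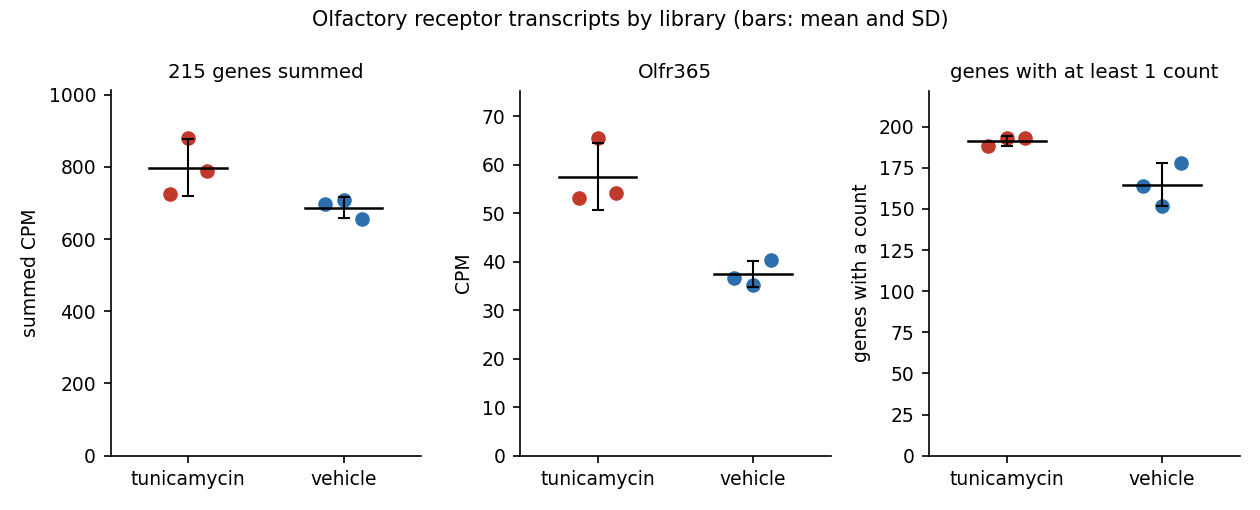
Summed CPM of the 215 olfactory receptor genes (left), CPM of Olfr365 (middle) and number of the 215 genes with at least 1 count (right), with a point for each library and the mean and SD of each group, tunicamycin left of vehicle. Olfr365 is at 53.1 to 65.5 CPM with tunicamycin and 35.3 to 40.4 CPM with vehicle.

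No olfactory receptor gene passed the edgeR test. The filter on low counts kept 101 of the 215 genes and removed 114, so the counts from this fit do not cover every gene. Called rows were 0 of 101, where 3 of all 3613 tested rows were called (0.083%). An unadjusted p under 0.05 was found for 7 of the 101 (6.93%) and for 6.42% of all rows tested, so this share was near the background. DESeq2 called 1 of the 101, Olfr365, and 0.637% of all rows. An edgeR fit on the rows with at least 10 counts, which kept all 215 genes, called 0 of the 215, against 0.0394% of its rows. In that fit an unadjusted p under 0.05 was found for 16 of the 215 (7.44%) and for 6.19% of its rows. The intervals were wide: the median half-width of the 95% interval was 1.48 on the log2 scale in the 101 genes and 0.37 over all rows tested.

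Log2 fold changes were above 0 for 66 of the 101 genes (65.3%), with a median of 0.20, against 50.1% of all rows tested, with a median of 0.00. Over all 215 genes, mean CPM was higher with tunicamycin in 134 (62.3%), against 51% of all rows with at least 10 counts. The 134 include the 11 genes at 0 in every vehicle library. The 215 genes were chosen by sums to which the deeper tunicamycin libraries supplied more, so this share is a description. The 56 tested genes of other chemosensory receptor families had a median log2 fold change of 0.22 in the same fit, and their summed levels were 448 to 501 CPM with tunicamycin and 388 to 446 CPM with vehicle, also without overlap. By level, the values of the olfactory receptor genes were as follows, and a difference between levels was not tested. Between 10 and 100 mean CPM, 13 of 17 genes were above 0, with a median of 0.17, against 55.6% and a median of 0.03 of the other rows. Between 5 and 10 CPM, 8 of 16 were above 0, with a median of 0.00, against 58.4% and 0.10 of the other rows. Between 2 and 5 CPM it was 19 of 28, with a median of 0.28, against 52.7% and 0.06. Between 1 and 2 CPM it was 21 of 34, with a median of 0.17, against 49.4% and -0.01. Between 0.5 and 1 CPM it was 5 of 6, with a median of 0.55, against 62.5% and 0.37. The biological coefficient of variation was close to that of other rows at the same level, 0.232 in the genes and 0.221 in other rows between 10 and 100 CPM.

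Among the 15 genes with the highest mean TPM, 10 had a fold change above 0 and 5 below. Leaving Olfr365 aside, the 14 others ranged between -0.38 (Olfr1264) and 0.38 (Olfr90 and Olfr539) on the log2 scale, with edgeR adjusted p between 0.84 and 0.99, and the groups of every one overlapped in CPM. For Olfr986, second by counts, the fold change was 0.20 (95% interval -0.11 to 0.51).

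Groups did not overlap in CPM for 11 of the 101 genes. The 7 higher with tunicamycin were Olfr365, Olfr45, Olfr735, Olfr1152, Olfr1156, Olfr802 and Olfr149, where 6.56% of all rows tested were higher in this way. The 4 lower with tunicamycin were Olfr1489, Olfr920, Olfr905 and Olfr887, where 6.01% of all rows were lower. Both shares of the genes were near or below the background. These 10 genes beside Olfr365 were picked for their values, so the values are a description.

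Olfr45 had 12.5, 12.1 and 9.80 CPM with tunicamycin and 5.99, 4.68 and 7.31 CPM with vehicle. It lies next to Olfr539 on chromosome 7, whose CPM overlapped at 16.1, 21.0 and 21.7 with tunicamycin and 14.2, 16.8 and 14.3 with vehicle. Olfr735 on chromosome 14 had 5.48, 8.26 and 7.27 CPM with tunicamycin and 3.44, 3.50 and 2.86 CPM with vehicle. The means were 11.5 CPM with tunicamycin and 5.99 CPM with vehicle for Olfr45, and 7.0 CPM with tunicamycin and 3.27 CPM with vehicle for Olfr735. Olfr802 had 1.53, 5.19 and 3.71 CPM with tunicamycin and 1.02, 0.779 and 0.248 CPM with vehicle. Olfr905 went the other way, with 0.564, 0.439 and 0.462 CPM with tunicamycin and 1.34, 2.81 and 2.72 CPM with vehicle. Fitted log2 fold changes were 0.93 for Olfr45, 1.09 for Olfr735, 2.31 for Olfr802 and -2.21 for Olfr905, with edgeR adjusted p between 0.57 and 0.64.

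**Figure D4:**
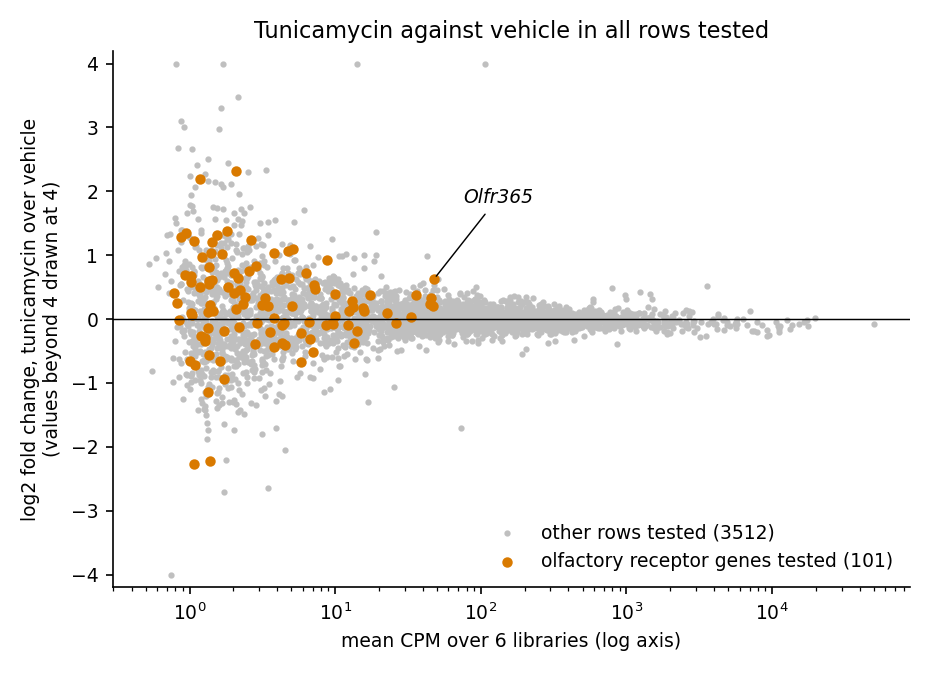
Log2 fold change of tunicamycin over vehicle (vertical axis) against mean CPM over the 6 libraries (horizontal, log axis) for the 101 tested olfactory receptor genes (orange) and the other 3512 tested rows (grey), with values beyond 4 drawn at 4. Olfr365, at 0.62, lies at the right end of the olfactory receptor genes, and the spread of both sets widens toward low CPM.

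The genes that traffic olfactory receptors or set their choice showed no called difference. Of this list 3 were tested and 0 were called. Rtp4, a receptor transporter that is also interferon-induced, had 11, 8.41 and 12.8 CPM with tunicamycin and 16.7, 15.1 and 17.8 CPM with vehicle. Its groups did not overlap, and its log2 fold change was -0.62, with an edgeR adjusted p of 0.71. Reep2, a membrane-shaping endoplasmic reticulum protein, had 2.63, 3.33 and 3.62 CPM with tunicamycin and 1.75, 2.13 and 1.31 CPM with vehicle. Its groups did not overlap either, in the other direction, with a log2 fold change of 0.88 and an edgeR adjusted p of 0.86. No gene of the odorant signalling list was tested, since its 3 rows held 3 counts in all.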

How the data were processed

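Per the submitters' processing notes, bcl2fastq, Salmon, DESeq2 and build GRCm39 were used, and roles and versions are not given there. The authors deposited estimated counts per gene, partly fractional, and TPM for the same 13685 rows, of which 6932 were at 0 throughout. The transcript annotation is not given in the sources used here. Symbols were matched for 13627 identifiers. Estimated counts were rounded to whole numbers before an edgeR 4.0.16 fit under R 4.3.3 (filterByExpr, TMM, robust 2-sided quasi-likelihood F test, Benjamini-Hochberg threshold 0.05), on all rows and all 6 libraries without a block. DESeq2 1.42.0 and limma 3.58.1 on log2(TPM + 1) or log2(TPM + 0.1) were alternatives, beside other scalings, filters and left-out libraries. The fit was tested on simulated data. CPM are estimated counts per 1000000 of TMM-scaled library size, and floors are 3 counts per library. Intervals of shares are Wilson 95% and cover counting error only. Positions, lengths and 31-mers (both strands) come from GENCODE M21 transcripts of GRCm38, a build other than the authors', and were not converted. Values in every library are given for Olfr365, for any gene called and for the 15 with the highest mean TPM, and genes outside this rule were chosen after their values were seen, except the 11 receptors listed for published ligands. Of each other list, called genes and up to 3 with the highest mean are named, except 1 gene that is not reported here. The genes and lists were chosen with earlier results of these data known.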

Additional observations from a re-analysis of the deposited data

How the results depend on the processing

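The number of rows called, 3 with edgeR, was 16 without a filter on low counts, 23 with DESeq2 and 1 with limma on log2(TPM + 1), and ranged between 1 (without vehicle replicate 2) and 5 (without vehicle replicate 3) when each library was left out in turn. Olfactory receptor genes called, 0 with edgeR, numbered 1 (Olfr365) without the filter and 1 with DESeq2, and 0 in every fit that left out a library. The log2 fold change of Olfr365 was 0.62 without the filter and 0.62 with DESeq2, both past the threshold, and 0.52 to 0.68 with a library left out, where its edgeR adjusted p was 0.28 to 1.00. The highest came without tunicamycin replicate 2. The cause was not tested. The summed level differed by 110.7 CPM (tunicamycin minus vehicle), by 69.8 to 147.6 CPM with a library left out, by 90.6 CPM without Olfr365 and by 10.1 on the deposited TPM, which is another unit. The number of genes with reads, 215, was 258 at a minimum of 5 counts, 172 at 20 and 193 to 209 with a library left out. The median log2 fold change of the tested olfactory receptor genes, 0.20, was 0.07 with limma on log2(TPM + 1) and 0.37 without vehicle replicate 2. Over all rows tested, the median was 0.05 with limma on log2(TPM + 1) and 0.01 without vehicle replicate 2.

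With the replicate number as a block, edgeR called 36 rows and no olfactory receptor gene, and Olfr365 had a log2 fold change of 0.62 with an adjusted p of 0.056. The titles share only a number, but each tunicamycin library is named as the same-numbered vehicle library with plusTun added. No label says that such libraries share a source, so a pairing is possible but not stated. Deviations of same-numbered libraries correlated at 0.04, 0.19 and 0.11, and each library correlated best with its own number, a hint from the data. Igha followed the number, and so did Jchain, at 39.1, 79.4 and 12.4 CPM with tunicamycin and 36.8, 82.4 and 7.52 CPM with vehicle. Low counts limit most of the 215 genes: the filter removed 114, and fits that kept all 215 called 0 on rows with at least 10 counts and 1 without a filter.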

Other observations

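Other chemosensory receptor families were also counted. All 16 rows of the trace amine-associated receptors (Taar), all 40 of the bitter taste receptors (Tas2r) and all 5 of the formyl peptide receptor-related genes (Fpr-rs) were at 0. Of the 3 sweet and umami taste receptor genes (Tas1r), 2 had a row and 1 of these had reads, 267 counts in all. In addition, 58 of 200 rows of the vomeronasal type 1 receptors (Vmn1r) and 48 of 102 of the type 2 receptors (Vmn2r), which serve the detection of pheromones in the vomeronasal organ, had summed counts of at least 10. Their shares, 29.0% and 47.1%, compare with 17.4% for all olfactory receptor rows, pseudogenes included, and 20.2% for the protein-coding ones. The differences were not tested.

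Vmn1r233 led the type 1 receptors, with 59.7, 58.3 and 42.5 CPM with tunicamycin and 57.4, 46.4 and 54.6 CPM with vehicle, and its groups overlapped. Vmn2r53 led the type 2 receptors, with 24.9, 26.3 and 24.5 CPM with tunicamycin and 19.0, 20.8 and 18.8 CPM with vehicle. Its groups did not overlap, and its log2 fold change was 0.37 with an edgeR adjusted p of 0.79. None of the 29 tested type 1 genes and none of the 26 tested type 2 genes was called by edgeR, and an unadjusted p under 0.05 was found for 0 of the type 1 and 1 of the type 2 genes. Their median log2 fold changes were 0.18 and 0.28, beside 0.20 for the tested olfactory receptor genes.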
